A study of Mus musculus with 3 samples.

Results

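The T cell receptor alpha chain rows of the count table were the variable segments (Trav), the joining segments (Traj) and the constant gene (Trac). Members were all rows whose symbol begins with Trav or Traj and a digit, plus Trac, which gave 189 of 44788 rows: 128 Trav rows, 60 Traj rows and Trac. Together they took 0.0497%, 0.0574% and 0.0634% of all counts in replicates 1, 2 and 3. Messenger RNA had been profiled from T cells taken out of mouse spleens with magnetic beads against CD90.2. The mice were BALB/c females aged 6 to 8 weeks. The culture medium held 2% serum, and every culture had received LZ-8, a protein made by the fungus Ganoderma lucidum that acts on immune cells, for 10 h. With 3 replicates of this single group and no untreated cells, no comparison of conditions was possible. No label ties a replicate to its own animal or culture, so every SD and p-value is about the spread of these samples, possibly a technical one.

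As background, each T cell of the alpha-beta lineage carries a receptor whose alpha chain gene was assembled in the thymus by joining a V segment to a J segment. The joined exon is spliced to the constant exons, so every alpha messenger RNA holds 1 V, 1 J and Trac. Recombination deletes the DNA between the joined segments, and repeated rounds can move to V segments farther from Trac and to J segments nearer to it. In mice the V region holds large duplications, whose copies are named with the letters d and n. A spleen holds many clones, so segment counts describe the mixture and not any cell. In bulk RNA, fewer cells that use a segment and less RNA per cell cannot be told apart.

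The libraries held 13239482, 15007652 and 15683820 counts. The share of an 18S ribosomal RNA row, Rn18s-rs5, was 5.83%, 2.37% and 0.992% in replicates 1, 2 and 3. All 10 T cell markers were at 10 CPM or more, where CPM are counts scaled to a common library size with TMM factors. The 5 markers of immature thymocytes summed to 0.157, 0.264 and 0.681 CPM, with Rag2 at 0 counts in each library.

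The J segments are short enough to show whole. Those below are the 5 with the highest shares, 3 annotated genes that lack the letters of a motif most others hold, and a pair of annotated genes at 0 counts. Sequences are the transcripts of GENCODE release M21, sense strand, 5′ to 3′, on chromosome 14 of GRCm38, the build that mm10 denotes. The reference is that of C57BL/6 mice, and the alleles of BALB/c mice were not read here. The capitals mark a motif searched in the reading frame of the segment, the codons TTN, GGN and NNN followed at once by GG, where N is any base. These letters cover phenylalanine or leucine, glycine, any residue and glycine, a form of the turn that J segments of antigen receptors are known for. They do not cover tryptophan, codon tgg, at the first place, so a segment without the letters may still hold such a turn.

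The 5 J segments with the highest shares all held the motif. On the + strand Traj39 lies at chr14:54179962-54180024, Traj27 at chr14:54192303-54192361, Traj18 at chr14:54200777-54200842, Traj49 at chr14:54168686-54168747 and Traj40 at chr14:54177921-54177981, each annotated as a J gene:
Traj39: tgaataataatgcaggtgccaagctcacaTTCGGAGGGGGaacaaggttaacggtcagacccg
Traj27: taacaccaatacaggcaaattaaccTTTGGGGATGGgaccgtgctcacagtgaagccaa
Traj18: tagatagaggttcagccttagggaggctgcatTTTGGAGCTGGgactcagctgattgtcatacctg
Traj49: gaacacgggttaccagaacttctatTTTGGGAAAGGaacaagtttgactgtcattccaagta
Traj40: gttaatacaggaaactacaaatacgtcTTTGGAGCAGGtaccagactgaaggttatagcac

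Segments annotated as genes but lacking the letters of the motif in frame included the next 3, of which Traj33 is the joining segment of mucosal associated invariant T cells. Traj38 and Traj33 hold tgg, tryptophan, where the letters would begin, followed by glycine, another residue and glycine. The 3 segments lie at chr14:54176271-54176325, chr14:54180574-54180635 and chr14:54185358-54185414:
Traj41: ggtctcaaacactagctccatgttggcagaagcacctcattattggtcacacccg
Traj38: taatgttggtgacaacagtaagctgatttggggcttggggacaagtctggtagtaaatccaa
Traj33: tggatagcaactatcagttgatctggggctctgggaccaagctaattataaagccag

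A further pair of annotated genes had 0 counts in every library, Traj35 with the motif at chr14:54183774-54183838 and Traj59 without it at chr14:54156133-54156196. Of the 64 bases of the Traj59 gene model, the 62 of its J transcript are shown:
Traj35: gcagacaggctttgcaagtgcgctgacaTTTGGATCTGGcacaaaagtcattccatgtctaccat
Traj59: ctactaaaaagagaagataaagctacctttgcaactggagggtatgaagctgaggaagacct

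Trac, which encodes the constant part of the alpha chain, differed between the libraries while the summed V and J rows stayed close. Trac had 4456, 6221 and 7384 counts, or 350, 410 and 457 CPM, in replicates 1, 2 and 3 (406 ± 53.8 CPM, mean ± SD, n = 3 libraries). Replicate 1 was the lowest and replicate 3 the highest, a 1.31-fold range. The summed Trav rows had 1585, 1765 and 1906 counts, or 125, 116 and 118 CPM (120 ± 4.28 CPM). The summed Traj rows had 537, 629 and 648 counts, or 42.2, 41.5 and 40.1 CPM (41.3 ± 1.04 CPM). The ratio of summed Trav to Trac counts was therefore 0.356 in replicate 1 and 0.284 and 0.258 in the others, while that of summed Traj to summed Trav counts stayed at 0.339, 0.356 and 0.340. Trac lies on chromosome 14 from 54220521 to 54224206, downstream of all Trav and Traj rows.

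**Figure D1:**
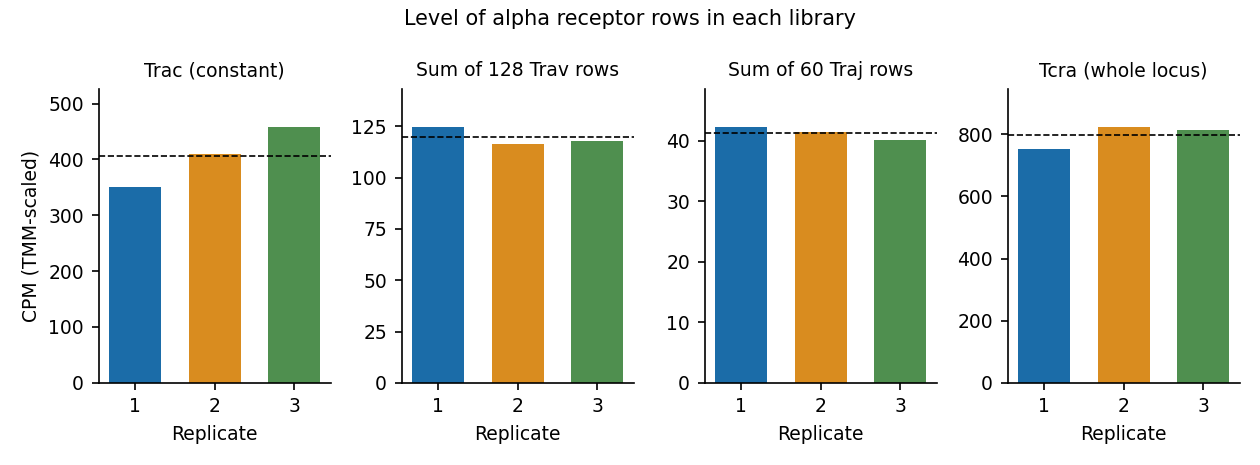
Level in CPM (vertical axes, each from 0) of Trac, of the summed Trav rows, of the summed Traj rows and of the locus-wide Tcra row in replicates 1 to 3 (bars, 1 library each; the dashed line is the mean of the 3). Trac ranges from 350 to 457 CPM, whereas the V rows stay between 116 and 125 CPM and the J rows between 40.1 and 42.2 CPM.

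A chi-square test of the 3 counts of each row against the library sizes, adjusted by the Benjamini-Hochberg method over 15392 rows, called 42.8% of them different between libraries. Trac was among them, at an adjusted p of 1.40e-42. Such a call says that these libraries differ by more than counting noise and nothing of a condition. Trac was lowest in the library with the highest 18S share and highest in that with the lowest, and the part of that share in the difference was not tested.

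The level of Trac is also uncertain because another row of the table, Tcra, stands for the whole locus in RefSeq, on chromosome 14 from 52427967 to 54224198. Tcra had 9598, 12471 and 13147 counts, or 754, 822 and 814 CPM (797 ± 37.4 CPM). It exceeded the sum of all 189 members 1.46-, 1.45- and 1.32-fold. The sources used here do not state how reads were divided between Tcra and the rows inside it. Levels of Trac are those of its row and may not hold all reads of the constant exons.

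Per kilobase of annotated exon, Trac was in the range of Trbc2 and above Trbc1, the constant genes of the beta chain. Trac was at 374, 439 and 489 CPM per kilobase in replicates 1, 2 and 3. Trbc2 was at 519, 486 and 474 CPM per kilobase, and Trbc1 at 191, 196 and 240 CPM per kilobase. The values of Trac and Trbc2 overlapped, while Trbc1 was below both in each library. The single gene of the delta chain constant region, Trdc, which lies between the V and J rows and is deleted when they join, was at 0.582 CPM per kilobase.

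Use of the J segments was broad and uneven. Of the 60 Traj rows, 39 had at least 3 counts in every library, 16 had fewer in some library and 5 had 0 in all. A count of 0 allows a share of up to 0.559%, 0.477% and 0.463% of the Traj counts in replicates 1, 2 and 3, for counting error only. The 10 most abundant rows held 39.3 ± 2.15% of the Traj counts.

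Traj39 led with 32, 31 and 37 counts, or 5.96%, 4.93% and 5.71% of the Traj counts. Traj27 followed with 22, 34 and 31 counts (4.76 ± 0.655%), and Traj18, the joining segment of invariant natural killer T cells, with 22, 34 and 28 counts (4.61 ± 0.700%). The values of these 3 overlapped between libraries, so their order is not resolved at this depth. Traj49 had 31, 23 and 20 counts (4.17 ± 1.42%), highest in replicate 1, and Traj40 had 20, 24 and 25 counts (3.80 ± 0.0683%). The other 5 of the 10, Traj7, Traj37, Traj52, Traj45 and Traj17, had mean shares from 3.20% to 3.38%. All 40 Traj rows deep enough for the chi-square test, with an expected count of at least 5 in each library, missed the threshold. The lowest adjusted p among them was 0.0843, for Traj49, the 1 row with an unadjusted p under 0.05. With DESeq2 size factors the count called was also 0, beside 42.5% of all rows tested. In the main test 42.8% of all rows were called, and 17.8% of those within the range of mean counts of the segment rows tested. The Trav and Traj rows tested had a median mean count of 13.7, against 271 over all rows tested, so neither share is at equal depth.

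**Figure D2:**
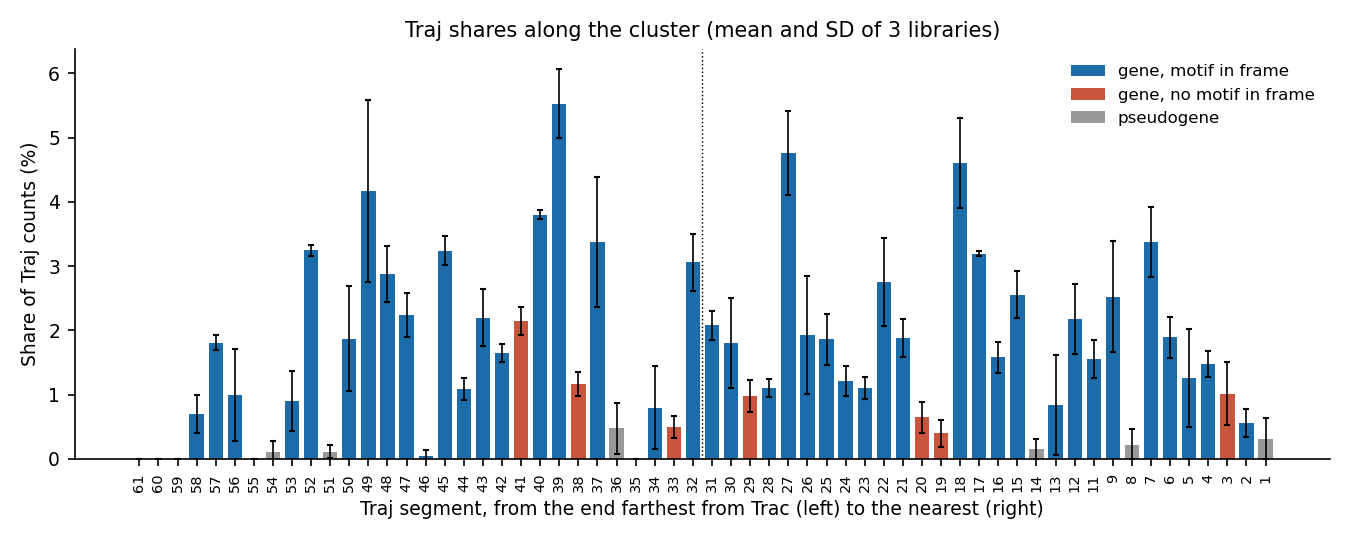
Mean share of the Traj counts in percent (vertical axis, bars; error bars, SD of 3 libraries) for each of the 60 Traj segments in their order on the chromosome, with Trac beyond the right end. Blue bars are genes with the motif in frame, red bars genes without it and grey bars pseudogenes; the dotted line parts the 30 segments farthest from Trac from the 30 nearest. Traj39 is the highest bar at 5.53% and every grey bar is below 0.5%.

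Most J counts lay in the segments that hold the motif, as the sequences printed above show for the leading ones. Of the 60 segments, 45 held the motif in frame, 42 of them with its first base 34 bases from the 3′ end of the segment, and none held it on the opposite strand. In any frame, 46 of the 60 segments held the motif on the sense strand. The background was windows of 61 bases, the median J length, at the 3′ end of all 141454 GENCODE transcripts. Of these windows, 0.801% held the motif in any frame on the sense strand and 2.05% on either. The 43 annotated genes with the motif in frame took 93.1%, 91.7% and 90.4% of the Traj counts, and their median share was 1.89%. The 8 annotated genes without it, Traj38 and Traj33 with tryptophan included, took 6.33%, 6.68% and 7.56%, with a median share of 0.812%. The 9 pseudogenes took 0.559%, 1.59% and 2.01%, and none of them had 3 counts in every library.

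The separation by motif was not complete. Traj41, whose annotated sequence has no in-frame match, had 12, 12 and 15 counts (2.15 ± 0.216%), above the median of the segments with the motif. Traj38, which misses the letters by its tryptophan codon tgg, had 7, 6 and 8 counts (1.16 ± 0.185%). Traj35 holds the motif, starting 37 bases from its 3′ end, and had 0 counts in each library, as did Traj59, which lacks it. A match of letters describes the sequence and is not a measure of its use in recombination.

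The sides of the J cluster took nearly equal shares. The 30 segments farthest from Trac, Traj61 to Traj32, took 48.4%, 47.7% and 48.3% of the Traj counts, and the 30 nearest took 51.6%, 52.3% and 51.7%. In blocks of 20 segments, the middle block (Traj41 to Traj22) took 40.5 ± 1.34%, the nearest 32.3 ± 0.799% and the farthest 27.3 ± 0.613%, in that order in each library. The farthest block held 5 of the 9 pseudogenes and the middle block 1. Among annotated genes with the motif, the median share was 1.84%, 1.93% and 1.89% in the farthest, middle and nearest blocks. Across all 60 segments the share had a Pearson correlation of -0.0883 and a Spearman correlation of -0.144 with the distance to Trac, a description over segments that share their libraries. At the ends of the cluster, Traj61, a pseudogene 65.4 kb from Trac, had 0 counts, and Traj1, a pseudogene 1.68 kb from Trac, had 0, 4 and 2 counts.

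The V segments were also used broadly. Of the 128 Trav rows, 94 had at least 3 counts in every library, 16 had fewer in some library and 18 had 0 in all. A count of 0 allows up to 0.189%, 0.170% and 0.157% of the Trav counts in replicates 1, 2 and 3. The 10 most abundant rows held 31.7 ± 2.24% of the Trav counts.

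Trav3-3, on chromosome 14 from 53665929 to 53666506, led with 89, 102 and 101 counts, or 5.62%, 5.78% and 5.30% of the Trav counts. Trav8d-1, from 52778447 to 52778995, followed with 82, 90 and 77 counts (4.77 ± 0.634%). As single rows, Trav3-3 was above Trav8d-1 in each of the 3 libraries, and both were above all other Trav rows in each. The second place depends on how identical rows are counted. Trav6-6 and Trav6d-6 hold the same 344 bases, and their summed counts of 77, 93 and 89 were above Trav8d-1 in replicates 2 and 3. Trav14d-3-dv8 had 56, 57 and 68 counts (3.44 ± 0.186%) and Trav12-3 had 45, 53 and 58 counts (2.96 ± 0.108%). The other 6 of the 10, namely Trav7-4, Trav7d-4, Trav6d-6, Trav8d-2, Trav6-6 and Trav9-4, had mean shares from 2.06% to 2.83%, and their values overlapped.

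Summed by family, the number that follows Trav, a few large families held most of the V counts. Trav6 (15 rows) took 11.7%, 14.3% and 14.9%, and Trav7 (13 rows) took 14.1%, 13.2% and 13.4%, so that their order changed between libraries. Trav9 (12 rows) took 12.9%, 11.4% and 8.81%, Trav14 (9 rows) 9.97%, 9.86% and 10.7%, and Trav12 (10 rows) 9.21%, 10.0% and 9.55%. These 5 families together held 58.0% of the Trav counts on average. Trav14 is the family of receptors known as V alpha 2, and Trav9 that known as V alpha 3.

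Family size was not the only difference. Trav8 with 5 rows took 8.48 ± 0.308%, more than Trav13 with 12 rows (3.93 ± 0.367%) in each library. Trav15, with 9 rows, had only 12, 25 and 16 counts, but Trav15-3, Trav15d-3 and Trav15n-3 are annotated pseudogenes at 0 counts. Within the same family Trav15d-1-dv6d-1 and Trav15n-1 hold an identical sequence, as do Trav15d-2-dv6d-2 and Trav15n-2. Among families of a single row, Trav21 took 1.29 ± 0.0836% and Trav17 1.03 ± 0.253%, while Trav20, Trav22 and Trav23 had 0 counts and Trav18 had 0, 0 and 1. Trav1, at the far end of the cluster 1792 kb from Trac, had 8, 11 and 16 counts, and Trav23, the row nearest to Trac at 243 kb, had 0.

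**Figure D3:**
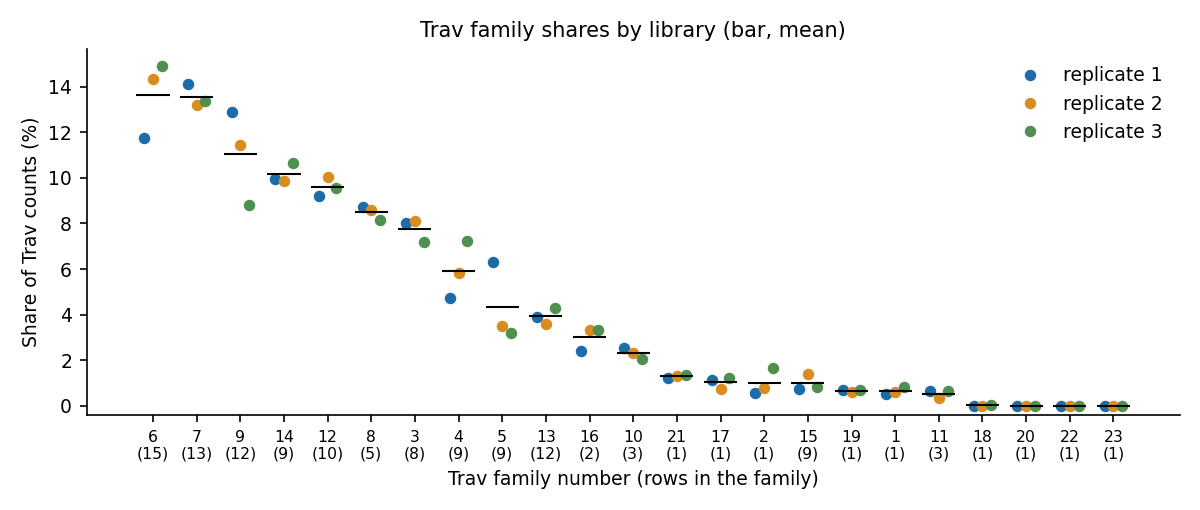
Share of the Trav counts in percent (vertical axis) of each of 23 Trav families (horizontal axis, with the number of rows in brackets), ordered by mean; points are replicates 1 to 3 and the line is their mean. Trav6 and Trav7 lead at means of 13.7% and 13.6%, and the families numbered 18, 20, 22 and 23 lie at or near 0.

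Rows of annotated pseudogenes took little of the V counts. The 106 annotated V genes took 97.8%, 97.3% and 97.8%, and the 20 pseudogenes 1.01%, 1.42% and 0.839%, with 15 of the 20 at 0 counts in every library. Trav9n-1 made up most of this with 13, 19 and 9 counts, the only pseudogene above the median share of all Trav rows. Of the V genes, Trav23 and Trav7n-6 had 0 counts in each library. Trav9-3 and Trav21 matched no symbol of the annotation and are given no position.

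Rows with the letter d, with the letter n and with no letter each held a part of the Trav counts. The letters name copies in the reference, and whether BALB/c mice carry each of these copies was not read here. Many rows with the letter n share a sequence with a row of the letter d. Counts in such rows do not show which copy was transcribed. The 39 rows with the letter d took 37.5%, 36.2% and 35.1% of the Trav counts, and the 55 with no letter took 44.5%, 43.3% and 46.9%. The 34 rows with the letter n took 18.8 ± 1.42%, the lowest of the 3 in each library. With 1 row kept of each identical set, chosen as the first by symbol, the letter n took 8.87%, the letter d 38.2% and no letter 52.9%. First by symbol keeps d over n and no letter over d. The fall of the letter n and the rise of no letter therefore follow from that choice. The split between copies depends on how identical rows are counted. With all rows, the median share of a row was 0.553%, 0.515% and 0.561% for the letters d and n and for no letter. Counted by position in blocks of 42 rows, the block farthest from Trac took 35.2 ± 1.30%, the middle block 28.8 ± 1.53% and the nearest 34.8 ± 1.26%. The middle block was the lowest in each library, and the other 2 changed order. Across 126 positioned rows the Pearson correlation of share with distance was 0.0923 and the Spearman correlation 0.181, again a description.

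**Figure D4:**
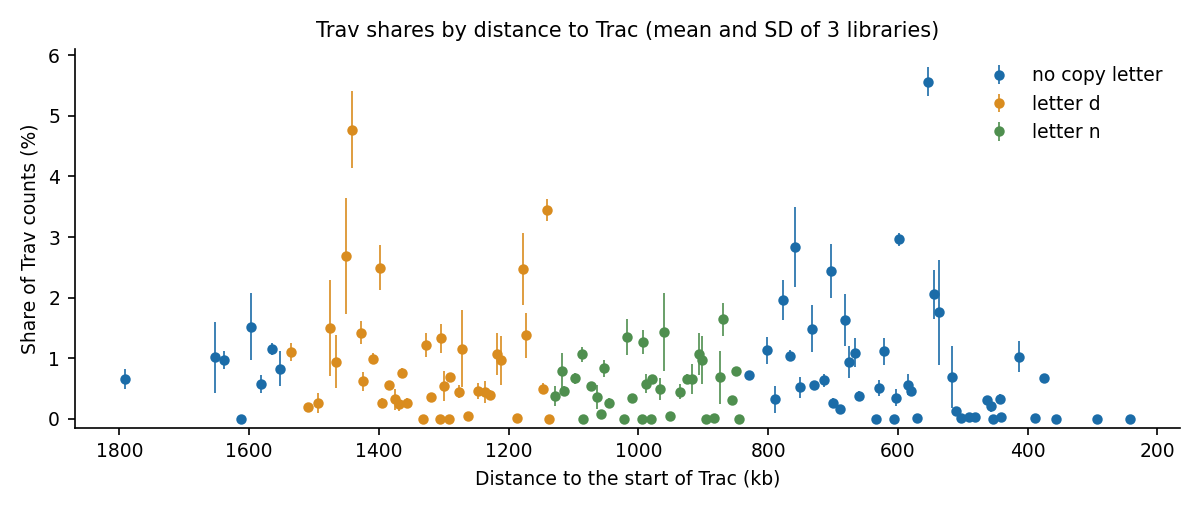
Mean share of the Trav counts in percent (vertical axis; error bars, SD of 3 libraries) against the distance of each of 126 Trav rows to the start of Trac in kilobases (horizontal axis, Trac to the right). Colours mark rows with the letter d, with the letter n and with no letter, and the highest points are Trav3-3 at 5.56% and Trav8d-1 at 4.77%.

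Near-identical copies limit what a single Trav row can say. In 21 pairs of rows, an annotated transcript of one row was contained whole in one of the other, over at least 200 bases. These 42 rows held 29.1 ± 1.16% of the Trav counts. Of the 19 pairs with any count, 4 had the same counts in all 3 libraries, and 12 pairs, these 4 included, differed by at most 3 counts in each library. Trav5d-4 and Trav5n-4, for example, each had 23, 17 and 15 counts. The sources used here do not state whether a read that matches both copies was counted in both, so family sums may hold some reads more than once.

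A triplet of copies shows how this bears on the segment of invariant natural killer T cells. Their receptor joins a V segment of family 11 to Traj18. Trav11 lies at chr14:53519303-53519859, Trav11d at chr14:52824357-52824912 and Trav11n at chr14:53135122-53135678. Trav11 and Trav11d shared the same 342 bases and had the same 5, 3 and 6 counts, 0.267 ± 0.0838% of the Trav counts each. Trav11n, an annotated pseudogene, had 0 counts in each library and differed from Trav11 at 8 of 343 bases. Counted from 1 at the 5′ end, with the base of Trav11 first, these are C10T, C33T, T105C, C138G, C201A, G217C, T240C and A266G, shown in capitals in bases 1 to 270. Read in frame from the first base, C138G turns the codon tac of Trav11 into the stop codon tag, and Trav11 has 0 stop codons in that frame:
Trav11: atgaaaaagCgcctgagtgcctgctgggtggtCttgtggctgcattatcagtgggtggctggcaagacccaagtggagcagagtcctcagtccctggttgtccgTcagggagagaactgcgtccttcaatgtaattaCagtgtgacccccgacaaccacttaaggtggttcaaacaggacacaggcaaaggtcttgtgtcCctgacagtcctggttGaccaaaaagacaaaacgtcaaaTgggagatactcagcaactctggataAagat
Trav11n: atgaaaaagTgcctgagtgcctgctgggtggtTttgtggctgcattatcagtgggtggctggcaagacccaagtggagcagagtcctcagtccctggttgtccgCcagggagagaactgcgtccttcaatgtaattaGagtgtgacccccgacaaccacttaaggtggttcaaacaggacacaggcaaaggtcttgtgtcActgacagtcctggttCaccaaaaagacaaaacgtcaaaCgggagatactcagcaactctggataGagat

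Traj18 ranked 3 of the 60 J segments, and each of the Trav11 and Trav11d rows ranked 90 of the 128 V rows. Ranks of single rows do not allow for the sequence that Trav11 and Trav11d share. Summed, Trav11 and Trav11d had 10, 6 and 12 counts, or 0.533 ± 0.168% of the Trav counts. The counts do not link a V segment to a J segment, so they do not say in which receptors Traj18 was used. Zbtb16, the regulator of invariant natural killer T cells, was at 6.12 CPM and the surface receptor gene Klrb1c at 0.815 CPM. The segments of mucosal associated invariant T cells, Trav1 and Traj33, were both at low shares. Trav1 had 0.656 ± 0.170% of the Trav counts, and Traj33 had 3, 4 and 2 counts, or 0.501 ± 0.171% of the Traj counts.

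Few members were called different between libraries by the chi-square test. Of 125 members tested, 10 were called: Trac, 9 Trav rows and none of the Traj rows, beside 42.8% of all rows tested. The Trav and Traj rows tested had mean counts of 6 to 97.3, with a median of 13.7, against a median of 271 over all rows tested. Among the 5333 rows of the table within that range of counts, 17.8% were called. Only the range was matched and not the depth within it, so this share is not one at equal depth. The 64 members not tested had too few counts. The count of 10 called members was 3 without replicate 1 and 4 without replicate 3, or 2.21% and 3.25% of the members tested. Beside these, 24.4% and 22.8% of all rows tested were called in the same runs.

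The 9 Trav rows called did not move together. Trav4-4-dv10 had 1.34, 1.71 and 3.22 CPM, Trav7d-3 had 1.02, 1.52 and 2.79 CPM and Trav2 had 0.707, 0.923 and 1.98 CPM, each highest in replicate 3 (adjusted chi-square p of 0.00336, 0.00411 and 0.0107). Trav7d-4 had 4.48, 3.23 and 1.98 CPM and Trav5-1 had 2.67, 1.52 and 1.30 CPM, each highest in replicate 1 (0.00283 and 0.0371). Trav5-4 had 20, 5 and 10 counts, highest in replicate 1 and lowest in replicate 2 (0.00260), and Trav8n-2 had 7, 21 and 8 counts, highest in replicate 2 (0.0269). Each of these 7 calls was lost without replicate 1, 2 or 3, among them Trav4-4-dv10 without replicate 3 (adjusted p = 0.623) and Trav5-4 without replicate 1 (adjusted p = 0.442). The call of Trac was kept in every alternative run.

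The last of the called rows were an identical pair. Trav14d-2 had 30, 13 and 16 counts and Trav14n-2 had 11, 33 and 33 counts, and both were called (adjusted chi-square p of 0.00323 and 0.0422). They moved in opposite directions, and their sum was 41, 46 and 49 counts, or 3.22, 3.03 and 3.04 CPM. With identical rows summed before the test, the pair had an adjusted p of 0.965. The same step added calls for the sum of Trav6d-7 and Trav6n-7 (adjusted chi-square p = 0.0140) and for that of Trav5d-4 and Trav5n-4 (0.0242), so that the count stayed at 10 with other members. As single rows, Trav14d-2 and Trav14n-2 lost their calls without replicate 1 (adjusted chi-square p of 0.834 and 0.895). The sequence that the rows share, on chromosome 14 within 52948568 to 52949169 for Trav14d-2 and within 53259578 to 53260179 for Trav14n-2, is shown for its shorter transcript of 276 bases:
Trav14d-2 and Trav14n-2: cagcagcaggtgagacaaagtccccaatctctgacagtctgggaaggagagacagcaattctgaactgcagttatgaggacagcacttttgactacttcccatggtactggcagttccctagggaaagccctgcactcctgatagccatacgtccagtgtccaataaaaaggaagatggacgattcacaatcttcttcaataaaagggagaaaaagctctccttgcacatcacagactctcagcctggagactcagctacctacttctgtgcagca

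**Figure D5:**
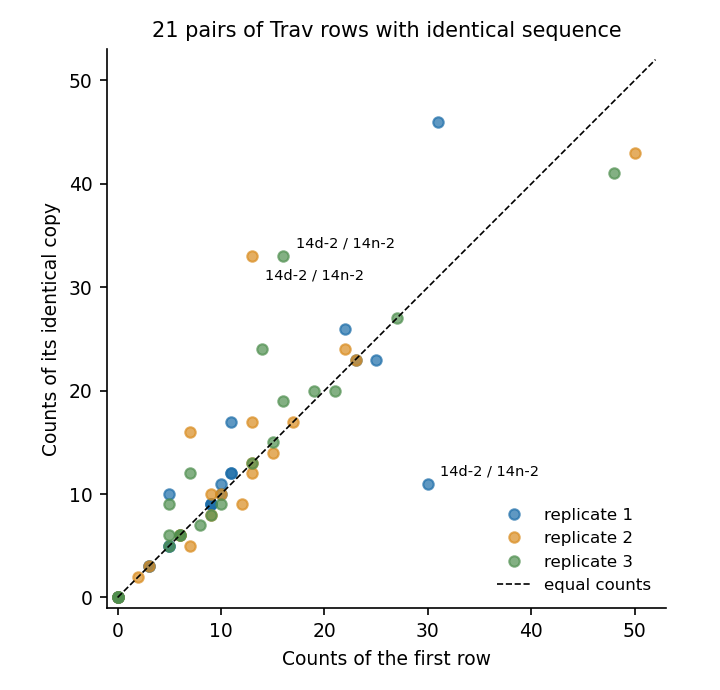
Counts of one row (horizontal axis) against counts of its identical copy (vertical axis) for 21 pairs of Trav rows, 1 point per pair and library, with replicates in colours and a dashed line at equal counts. Most points lie on or beside the line, and the pair Trav14d-2 and Trav14n-2 lies below it in replicate 1 (30 and 11 counts) and above it in replicates 2 and 3.

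Shares of the segments were alike between libraries as a whole. The Pearson correlation of shares across the 128 Trav rows was 0.940, 0.880 and 0.934 for replicates 1 and 2, 1 and 3, and 2 and 3. Across the 60 Traj rows it was 0.885, 0.874 and 0.918. These are correlations over segments, which are not independent replicates and include the rows at 0.

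Genes that work with the alpha chain were expressed at many levels. In the list of receptor complex partners all 7 genes were called different between libraries, 3 with their lowest CPM in replicate 1, 3 in replicate 3 and Cd247 in replicate 2. Over all rows tested 42.8% were called, 19.2% with their lowest CPM in replicate 1 and 18.5% in replicate 3. Those shares are not matched in depth: the shallowest of the 7 genes, Trat1, had 283, 356 and 560 counts, against a median of 271 over all rows tested. Trbc2 was at 341 ± 15.8 CPM, Trbc1 at 157 ± 20.1 CPM and Cd3e, a signalling chain, at 364 ± 24.2 CPM. Cd3g, another signalling chain, had 144, 157 and 185 CPM, lowest in replicate 1 like Trac, whereas Cd3d had 161, 137 and 113 CPM, lowest in replicate 3.

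Genes of V(D)J recombination were split. The lymphoid enzymes that cut and extend the segments were at or near 0: Rag1 had 0, 2 and 6 counts, Rag2 had 0 in each library and Dntt, which adds bases at the joints, had 0, 2 and 3. Ptcra, the partner of the beta chain before the alpha chain is made, had 0, 0 and 1. The repair proteins that all cells use to join DNA ends were present. Per kilobase the highest were the Ku subunits, Xrcc5 at 25.4 and Xrcc6 at 13.9 CPM per kilobase. Of the 11 genes of this list, 4 were called, 3 of them with the lowest CPM in replicate 1, 4 were not and 3 had too few counts. The 4 called of 8 tested are near the 42.8% of all rows tested.

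Factors known to bind the enhancer downstream of Trac were all above 10 CPM. Per kilobase, Tcf7 led at 181 and Ets1 followed at 70.9 CPM per kilobase. Of the 9 factors, 7 were called different between libraries, 3 with their lowest CPM in replicate 1 and 4 in replicate 3, beside 42.8%, 19.2% and 18.5% of all rows tested. The 9 factors, like the 4 loop genes below, had more counts in each library than the median of 271 over all rows tested. These shares are therefore not matched in depth. Ets1 had 611, 601 and 590 CPM and was not called (adjusted chi-square p = 0.134). Among 4 genes that form chromatin loops, Rad21 was at 40.5 and Smc1a at 38.3 CPM per kilobase, and 3 were called, each with its lowest CPM in replicate 1, as were 19.2% of all rows tested. Dad1, the neighbour of Trac on the chromosome, had 132, 99.8 and 58.9 CPM, lowest in replicate 3, the reverse of the order of Trac.

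Markers of other cells summed to less than those of T cells in each library. Of 5 gamma-delta T cell markers, the 3 analysed here summed to 4.79, 6.46 and 5.82 CPM. B cell markers summed to 92.1, 83.8 and 83.9 CPM, of which Ighm was 72.4 CPM on average. The 6 natural killer cell markers summed to 25.1, 25.1 and 23.0 CPM, most of it Prf1 at 12.7 and Klrk1 at 10.3 CPM on average. Ncr1 and Klra8 had 0 counts, and whether BALB/c mice carry each marker as the reference does was not read here. The 6 macrophage and monocyte markers measured summed to 13.4, 16.2 and 16.8 CPM, with Csf1r at 0. The 4 neutrophil markers summed to 1.02, 0.264 and 0.0619 CPM. The 3 invariant natural killer T cell markers summed to 74.5, 78.9 and 89.5 CPM, nearly all of it Slamf6, which other T cells also express. The summed T cell list was 3736, 3508 and 3509 CPM, highest in replicate 1, where Trac was lowest.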

How the data were processed

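The deposited data were 1 table of raw read counts, genes in rows and replicates in columns, from libraries of an Ion Proton RNA-Seq kit, per the labels. The submitters' processing notes name mm10 as the build. The aligner, counter, gene annotation, strand setting and filters are not stated in the sources used here.

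Counts were scaled with TMM in edgeR 4.0.16 (factors 0.962, 1.01 and 1.03, R 4.3.3) and given as CPM. Shares are percent of the summed Trav or Traj counts of a library, with mean and SD over 3 libraries. Each row with an expected count of at least 5 in every library was tested by chi-square, adjusted by the Benjamini-Hochberg method over all rows at 0.05; this step was tested on simulated data. With 3 counts as the floor, limits cover counting error only. Depth sets the precision: at 537 to 1906 summed segment counts per library, 1 count is a sizeable part of most shares.

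Positions, biotypes, exon lengths and sequences came from GENCODE M21, in which 187 of 189 symbols matched. Named rows were Trac, the 10 highest Trav and Traj rows by mean share, the segments of invariant T cells, the cluster ends, called rows, and pseudogenes above the median share; lists also had their most abundant genes per kilobase named. Rows shown for other reasons, such as Traj35, Traj38, Traj41, Traj59 and the families, were chosen after their values were seen. The members and lists were chosen with earlier results of these data known. The Trgc genes of the gamma-delta lists are not analysed here. Blk stands in the B cell and gamma-delta lists, and Klrb1c in both natural killer lists. DESeq2 1.42.0 size factors, raw totals, other filters and leaving out each replicate were alternatives; the test of summed identical rows, keeping 1 row of each identical set and the use of Tcra were added after seeing the data.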

Additional observations from a re-analysis of the deposited data

Results flagged for a closer look

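Rows of the delta chain, whose segments lie inside the alpha locus, are outside the alpha rows described above. Among its V segments, those above 3 counts in every library were Trdv1, with 20, 28 and 23 counts (1.61 CPM on average), and Trdv5, with 7, 10 and 6 counts (0.527 CPM). They are given because no comparison above uses them. Groups of 3 samples were not searched for outliers.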

How the results depend on the processing

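No paired analysis was possible because the libraries form 1 group. The number of alpha chain rows called different between libraries was 10, and ranged from 3 to 12 without replicate 1, 2 or 3 (3 without replicate 1, 4 without replicate 3). As a share of the alpha chain rows tested, that range was 2.21% to 9.52%. The number over all rows, 6589, ranged from 3555 to 6384, or 22.8% to 41.6% of those tested, with fewer samples tested. With other scalings and filters the counts were 8 to 10 alpha rows, or 4.82% to 12.8% of those tested. Over all rows the share was 27.6% to 47.1% in these runs. The level of Trac was 406 CPM, and the Tcra row in its place gave 797 CPM. Tcra stands for the whole locus, so its value is not a second estimate of Trac alone. Requiring 10 counts in every library left 51 Trav and 22 Traj rows detected instead of 94 and 39. The share of the Traj segments farthest from Trac was 48.1%, 47.3% per kilobase of exon and 27.3% for the farthest 20 segments alone. With 1 row kept of each identical set, the 10 most abundant Trav rows held 36.8% of the counts instead of 31.7%. Depth limits the order of neighbouring segments and any statement on rows at 0.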

Other observations

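Rows marked dv in their names, for V segments that can also join the delta chain, numbered 9. They took 6.56%, 7.88% and 8.71% of the Trav counts. The rows were picked by that mark alone, so others that can join the delta chain may be missing. Trav15n-1, for example, shares the sequence of Trav15d-1-dv6d-1 but has no mark. Trav14d-3-dv8 and Trav4-4-dv10 were the most abundant of the 9. The summed level of the 9 was 9.21 ± 1.06 CPM, against 2.25 ± 0.324 CPM for Trdc, the delta constant gene. The D segments Trdd1 and Trdd2 and the joining segment Trdj2 had 0 counts in each library, and Trdj1 had 1, 2 and 2.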
